A study of Mus musculus with 17 samples.

Results

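The antiviral interferon-stimulated genes are the genes that cells switch on in response to interferon and whose products act against viruses. A list of 42 mouse symbols was taken, and the rows of the deposited macrophage table that carry these symbols were used. Of the 42 symbols, 40 had a row among the 21683 rows of the table, and Mx1 and Mx2 are not analysed here. All 40 genes reached 1 TPM (a transcript level per length, relative to the library total) in all 17 libraries, and all 40 passed the filter on low values, so none of them was tested through one high group alone.

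Type I interferons bind a cell surface receptor, whose kinases JAK1 and TYK2 phosphorylate transcription factors such as STAT2. With IRF9, STAT2 is part of a complex called ISGF3, which binds a sequence named the interferon-stimulated response element (ISRE) in the promoters of its target genes. The products of the target genes sense viral nucleic acids, degrade RNA, block translation or tether virus particles to the cell, and macrophages are known to express many of them when they meet microbial products.

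RNA was sequenced from thioglycollate-elicited peritoneal macrophages (PMs) of C57BL/6 mice that all carried floxed alleles of the gene for IKKβ, a kinase that activates NF-κB. The mice were 8 weeks old, and the PMs were collected 3 days after an injection of 1 mL of 3% thioglycollate according to the labels, while the study's methods state 4 days. After 4 h of attachment, PMs of IKKβF/F mice received PBS (F/F PBS, n = 6 libraries) or 100 nM HIV protein Tat (F/F Tat, n = 6) for 12 h. PMs of IKKβΔMye mice, which in addition carried a heterozygous LysM-Cre knock-in that deletes IKKβ in myeloid cells, received the same dose of Tat for the same time (ΔMye Tat, n = 5). PBS-treated ΔMye PMs were not analysed here, so any genotype difference with Tat may already have been there without it. Levels of the 3 groups are given in the order F/F PBS, F/F Tat and ΔMye Tat, as mean ± SD. The labels do not say whether the libraries of a group came from separate mice, while the study's heatmap legends call the columns biological replicates of mouse. The p-values measure only the spread between these libraries.

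Promoters are shown first because the ISRE is the sequence that defines how these genes are known to be controlled. RefSeq promoter sequences (GRCm38.p6) were found for 31 of the 40 genes, and the 250 bases before each start were searched on both strands for the letters GAAANNGAAA, a core of the ISRE, where overlapping matches were counted separately. The ISRE letters occurred in 12 of 31 promoters (38.7%), in 7 of them more than once, and in 3.46% of all 27025 genes with a promoter in the same table (3.63% of the 8413 that were tested for expression). The letters TTCNNNGAA of the gamma-activated site, an element known from genes that type II interferon induces, occurred in 5 of 31 promoters (16.1%) and in 8.13% of all genes (7.44% of those tested). A κB site, the NF-κB consensus, occurred in 5 of 31 promoters (16.1%), those of Bst2, Ifit2, Isg20, Oas3 and Oasl1. It occurred in 8.23% of all genes and in 10.4% of those tested. The following stretches are upstream of 8 members described below, with the ISRE letters in capitals on the strand of the gene.
Isg15: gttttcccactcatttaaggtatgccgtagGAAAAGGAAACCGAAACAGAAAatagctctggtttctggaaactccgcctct
Rsad2: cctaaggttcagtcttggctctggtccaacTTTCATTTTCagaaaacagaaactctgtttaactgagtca
Ifit1: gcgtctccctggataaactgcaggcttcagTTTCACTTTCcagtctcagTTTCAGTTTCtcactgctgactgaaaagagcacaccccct
Ifit3: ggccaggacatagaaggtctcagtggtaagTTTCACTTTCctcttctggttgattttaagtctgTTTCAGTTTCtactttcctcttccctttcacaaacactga
Ifit3b: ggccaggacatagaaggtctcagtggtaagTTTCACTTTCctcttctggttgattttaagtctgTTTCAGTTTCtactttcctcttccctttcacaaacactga
Oas1a: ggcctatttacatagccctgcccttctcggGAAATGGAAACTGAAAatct
Oas1g: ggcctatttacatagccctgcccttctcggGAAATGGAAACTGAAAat
Bst2: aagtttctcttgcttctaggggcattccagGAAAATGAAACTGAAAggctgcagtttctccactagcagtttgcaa

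The stretches lie at chr4:156200845-156200926 (Isg15, minus strand), chr12:26456533-26456602 (Rsad2, minus strand), chr19:34640755-34640843 (Ifit1, plus strand), chr19:34583343-34583446 (Ifit3, plus strand), chr19:34607739-34607842 (Ifit3b, plus strand), chr5:120907526-120907575 (Oas1a, minus strand), chr5:120887614-120887661 (Oas1g, minus strand) and chr8:71537557-71537632 (Bst2, minus strand). They begin 30 bases before the first match and end 30 bases after the last one or at the start site. Isg15 has 3 overlapping matches, and the stretches of Ifit3 and Ifit3b are the same in 104 of 104 bases. Those of Oas1a and Oas1g are the same in 48 of 48 bases compared. Among the 31 genes, the median log2 difference of F/F Tat against F/F PBS was 2.92 for the 12 with the ISRE letters and 1.99 for the 19 without, and the ranges overlapped (1.56 to 5.11 and 1.43 to 5.11). The medians were 1.69 for the 5 genes with the gamma-activated site and 2.33 for the 26 without, and 3.50 for the 5 with the κB site and 2.16 for the 26 without, again with overlapping ranges. A missing match says only that these letters are not in this window, as for Cmpk2 and Isg20, whose levels with Tat are given below.

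The listed TPM summed to 889318 to 903576 in the 17 libraries. Read numbers cannot be had from TPM, so the depth is unknown and no counting interval is given. Ikbkb, the gene for IKKβ, ranged from 24.5 to 30.1, from 21.6 to 25.4 and from 12.8 to 19.9 TPM in these 3 groups, a partial check of the labels since only a part of the gene is deleted. The 8 macrophage markers were at 1 TPM or more, and their summed level was 25796.2 to 26807.2 TPM (F/F PBS), 10309.8 to 10890.0 TPM (F/F Tat) and 8019.4 to 8344.0 TPM (ΔMye Tat). Most of that sum was Lyz2 (22382.0, 6993.1 and 4333.2 TPM), the gene whose locus carries the Cre. By genotype with Tat, 4 of the 8 markers were higher at an adjusted p under 0.01 (Adgre1, Cd68, Csf1r and Cd14, limma). Fcgr1 and Lyz2 were lower. Of all genes tested, 38.8% were higher and 8.87% lower. The summed T cell markers were 4.78 to 11 TPM, 5.32 to 6.34 TPM and 12.5 to 13.7 TPM in the same order. Of 6 markers of plasmacytoid dendritic cells, Siglech, a defining one, had group means of 0.0399 TPM or less, and Ccr9, Klk1 and Pacsin1 stayed at 0.853 TPM or less. Cox6a2 was at 102.0, 41.9 and 28.0 TPM in the 3 groups. Ly6d was at 5.82, 12.1 and 4.44 TPM, higher with Tat and lower by genotype as the antiviral genes are, and its part in their levels was not tested. Across all 10451 genes tested, the median log2 difference was -0.65 with Tat in F/F PMs, 0.22 by genotype with Tat, and -0.43 when ΔMye Tat was set against F/F PBS. With median-ratio scaling, in which every library is rescaled so that its typical gene matches a common reference, the same medians were -0.03, 0.01 and -0.02. Of the 4 macrophage markers higher by genotype, only Csf1r still passed after scaling, and Fcgr1 and Lyz2 stayed lower. Levels are TPM as deposited, and in bulk samples fewer cells of a type and less RNA per cell cannot be told apart.

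To ask how Tat changed these genes in PMs with intact IKKβ, F/F Tat was compared with F/F PBS. All 40 genes rose. Their summed level was 4235.1 to 4355.0 TPM in the F/F PBS libraries, 0.474% to 0.488% of the listed total, and 26940.3 to 27898.4 TPM with Tat, 2.98% to 3.09% of the total. The largest log2 differences were those of Rsad2 (viperin, an enzyme that makes a chain-terminating nucleotide), Isg20 (an RNA exonuclease) and Ifi205 (a protein of the IFI200 family), and the smallest were those of Rtp4, Tor3a and Oas2. At an adjusted p under 0.01 (limma on log2(TPM + 0.1), Benjamini-Hochberg over all genes tested), 40 of 40 were higher, against 17% of all genes tested. With a fold change over 3 as well, 33 of 40 were called, against 5.21% of all genes, and the genes that did not reach the fold were Oas2, Oasl2, Eif2ak2, Bst2, Rtp4, Tor3a and Sp100. The median log2 difference of the 40 genes was 2.06 (0.92 to 5.11), which was 2.71 above the median of all genes, and the adjusted p was at most 1.22e-10. The F/F Tat and F/F PBS libraries did not overlap for any of the 40 genes, against 15.3% of all genes that were higher without overlap. After median-ratio scaling the median was 2.69 and 39 of 40 genes were called, all but Rtp4, against 8.51% of all genes.

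**Figure D1:**
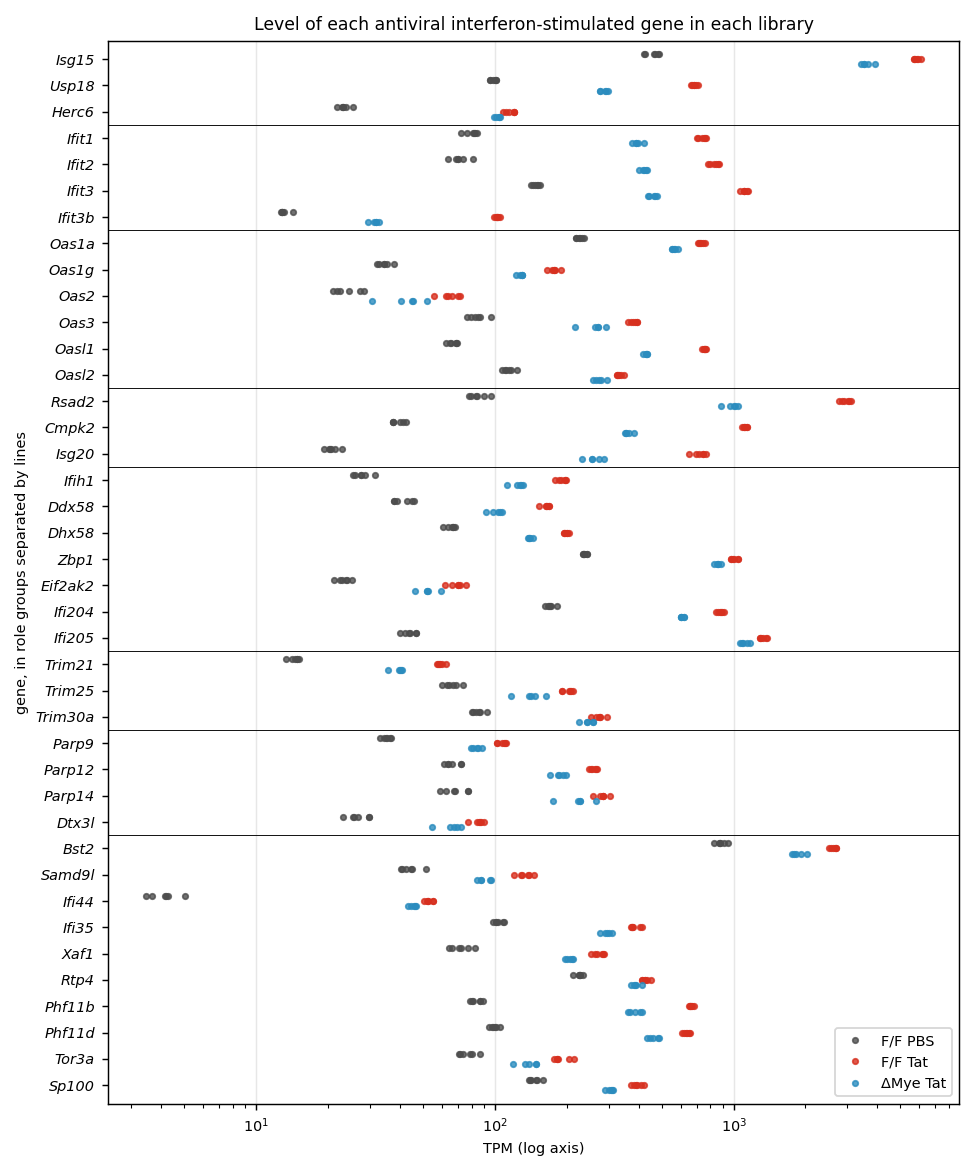
Level of each of the 40 genes in each library, in TPM on a log axis, with 1 point per library for F/F PBS (grey), F/F Tat (red) and ΔMye Tat (blue), and lines between role groups. For all 40 genes the F/F Tat points lie right of the F/F PBS points, and the ΔMye Tat points lie between them or touch the F/F Tat points, as they do for Trim30a, Parp14 and Rtp4.

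To ask whether IKKβ affected these levels, ΔMye Tat was compared with F/F Tat. All 40 genes were lower in ΔMye Tat, with the largest differences for Ifit3b, Cmpk2 and Rsad2 and the smallest for Rtp4, Trim30a and Herc6. Their summed level was 16563.5, 16691.9, 16751.7, 16760.7 and 17068.7 TPM in the ΔMye Tat libraries, 1.85% to 1.90% of the listed total. Each of these sums lay below all F/F Tat libraries and above all F/F PBS libraries. At an adjusted p under 0.01, 40 of 40 genes were lower (limma), against 8.87% of all genes tested, while 38.8% of all genes were higher. The median log2 difference was -0.50 (-1.70 to -0.13), which was 0.72 below the median of all genes, and all 40 genes lay below that median. Only Ifit3b, Rsad2 and Cmpk2 passed a fold of 3 (3 of 40, against 0.316% of all genes lower), and Isg20 joined them after scaling. The groups did not overlap for 37 genes, against 8.01% of all genes that were lower without overlap, and they overlapped for Trim30a, Parp14 and Rtp4. After scaling, 40 of 40 genes were again lower, against 19.4% of all genes, with a median of -0.72.

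The ΔMye Tat mean was below 50% of the F/F Tat mean for 6 genes (Usp18, Ifit3, Ifit3b, Rsad2, Cmpk2 and Isg20), between 50% and 75% for 19 genes and above 75% for 15 genes. The genes near the threshold of the test were Ifi44, at an adjusted p of 0.00949, and Trim30a, at 0.00602 (limma). Ifi44 passed it in 3 of the 17 fits that each left out 1 library, and Trim30a in 10, whereas every other gene passed it in all of them. The limma fit shares 1 spread over the 3 groups. The SD of Ifi44 was 13.3%, 3.21% and 3.29% of the mean in F/F PBS, F/F Tat and ΔMye Tat. Herc6, Parp14 and Rtp4 were at an adjusted p of 0.0115 and Trim30a at 0.0195 in an exact permutation test.

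**Figure D2:**
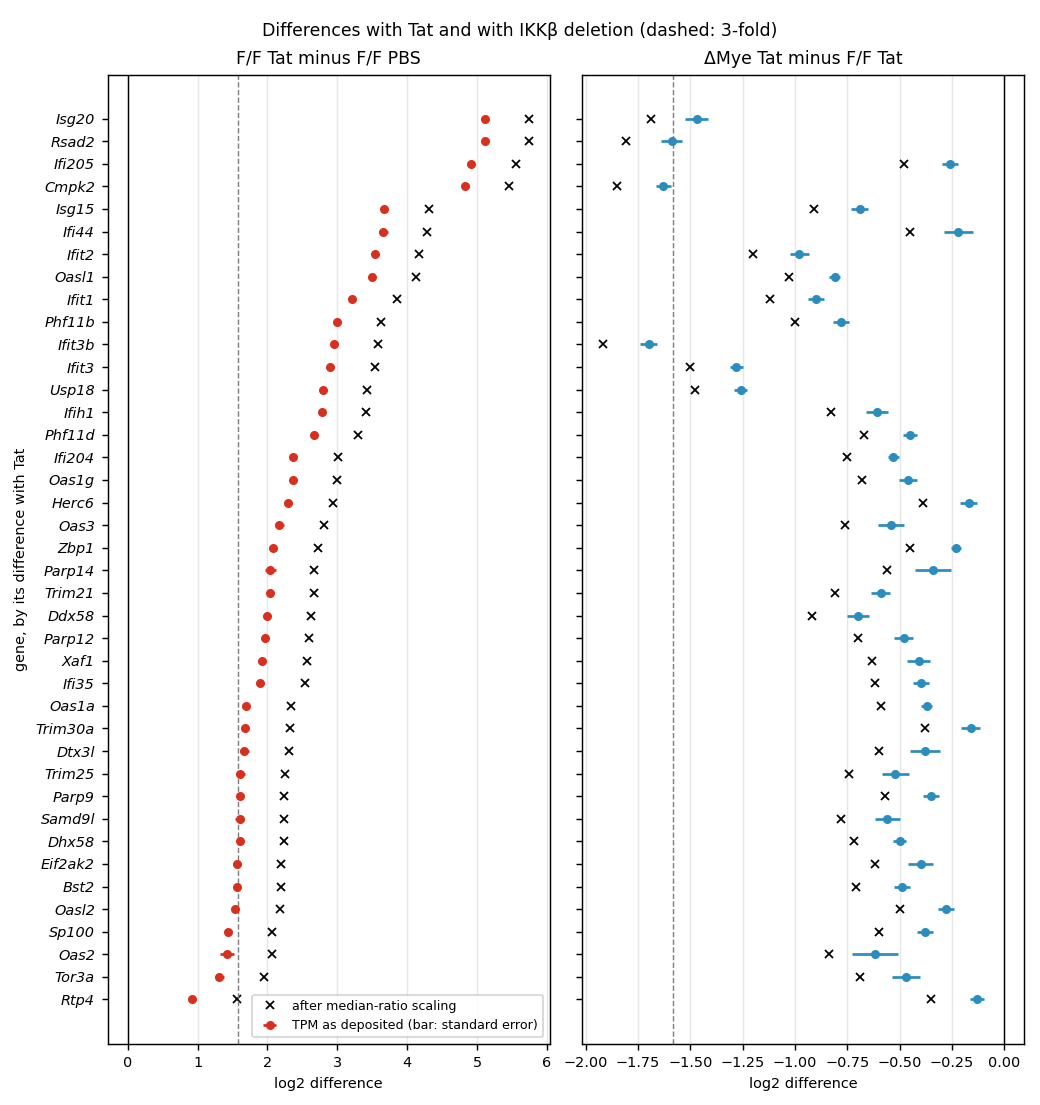
Log2 difference of each of the 40 genes for F/F Tat minus F/F PBS (left) and ΔMye Tat minus F/F Tat (right), with points and standard errors from the TPM as deposited and crosses after median-ratio scaling. Genes are ordered by the left panel, and Ifi205 and Ifi44 stand out among the high genes by small differences on the right (-0.26 and -0.22), where Isg20, Rsad2 and Cmpk2 are at -1.47, -1.59 and -1.63. The panels share the F/F Tat libraries.

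The genes of nucleotide metabolism and RNA degradation had the highest log2 differences with Tat as a group (4.83 to 5.11), and their ΔMye Tat means were 32.4% to 36.1% of the F/F Tat means. Rsad2 (chromosome 12, 26442746 to 26456452 of GRCm38) ranged from 78.2 to 96.6 TPM (median 83.7) in F/F PBS and from 2776.9 to 3103.9 TPM (median 2970.7) in F/F Tat. It was at 1008.1, 966.8, 1044.5, 1018.0 and 882.5 TPM in the 5 libraries of ΔMye Tat. The 3 groups did not overlap, and every ΔMye Tat library was far above F/F PBS and far below F/F Tat. The log2 difference was 5.11 (standard error 0.05, adjusted p = 1.92e-24, limma) with Tat and -1.59 (standard error 0.052, adjusted p = 1.41e-14, limma) for ΔMye Tat against F/F Tat. Its neighbour Cmpk2 (chromosome 12, 26469204 to 26479837), a mitochondrial nucleotide kinase, ranged from 37.3 to 42.6 TPM (median 38.8) in F/F PBS and 1088.5 to 1141.1 TPM (median 1114.3) in F/F Tat. Cmpk2 was at 352.6, 353.2, 365.7, 383.8 and 353.2 TPM in ΔMye Tat, again with no overlap between groups. Its log2 difference was 4.83 (standard error 0.034, adjusted p = 2.07e-26, limma) with Tat and -1.63 (standard error 0.036, adjusted p = 1.43e-16, limma) by genotype. Isg20 (chromosome 7, 78913424 to 78920396) rose from 19.2 to 23 TPM (median 20.5) in F/F PBS to 651.7 to 765.1 TPM (median 730.0) in F/F Tat. The ΔMye Tat libraries were at 231.5, 255.9, 256.2, 272.0 and 285.3 TPM, all below the lowest F/F Tat library. The log2 differences of Isg20 were 5.11 (standard error 0.051, adjusted p = 2.96e-24, limma) and -1.47 (standard error 0.054, adjusted p = 6.08e-14, limma).

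The IFIT proteins bind viral RNA and restrict its translation, and all 4 genes were called with Tat at log2 differences of 2.90 to 3.54. They lie side by side on chromosome 19 in the order Ifit2, Ifit3, Ifit3b and Ifit1. Ifit3, the most abundant (chromosome 19, 34583531 to 34588731), ranged from 141.8 to 154.5 TPM (median 148.4) in F/F PBS and 1062.5 to 1145.2 TPM (median 1106.1) in F/F Tat. It was at 440.3, 439.9, 478.5, 465.5 and 466.8 TPM in ΔMye Tat, so that no groups overlapped. The log2 difference of Ifit3 was 2.90 (standard error 0.028, adjusted p = 2.05e-24, limma) with Tat and -1.28 (standard error 0.03, adjusted p = 1.43e-16, limma) by genotype. Ifit3b (chromosome 19, 34607970 to 34613401), a close copy of Ifit3, ranged from 12.7 to 14.3 TPM (median 12.9) in F/F PBS and 99.0 to 105.0 TPM (median 102.0) in F/F Tat. The ΔMye Tat libraries held 31.3, 31.8, 32.7, 31.8 and 29.4 TPM, with a mean at 30.8% of the F/F Tat mean, the lowest share of the 40 genes. Ifit3b differed by 2.95 (standard error 0.037, adjusted p = 1.00e-22, limma) with Tat and by -1.70 (standard error 0.039, adjusted p = 1.43e-16, limma) by genotype. Of the 31-base sequences of their transcripts, 61.8% of those of Ifit3 also occur in other genes, and 55.2% of those of Ifit3b, so the split of reads between these genes is uncertain. Ifit1 was at 79.6 ± 4.56, 738.1 ± 25.9 and 395.1 ± 16.6 TPM in the 3 groups. Ifit2 was at 71.3 ± 5.69, 828.9 ± 37.2 and 420.6 ± 11.9 TPM in the 3 groups.

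ISG15 is a ubiquitin-like protein that is attached to other proteins, HERC6 attaches it in mice, and USP18 removes it and also restrains signaling at the interferon receptor. Isg15 (chromosome 4, 156199424 to 156200818), the gene with the highest level of the 40 in both Tat groups, ranged from 420.3 to 487.0 TPM (median 466.5) in F/F PBS and 5670.1 to 6076.4 TPM (median 5791.0) in F/F Tat. It was at 3528.0, 3661.9, 3420.4, 3507.3 and 3926.9 TPM in ΔMye Tat, below every F/F Tat library. Its log2 difference was 3.67 (standard error 0.039, adjusted p = 7.32e-24, limma) with Tat and -0.69 (standard error 0.041, adjusted p = 6.63e-11, limma) by genotype. Usp18 was at 98.7 ± 2.83, 685.0 ± 18.5 and 285.3 ± 10.2 TPM in the 3 groups, and in ΔMye Tat it kept 41.7% of the F/F Tat level. Herc6 (chromosome 6, 57581000 to 57664632) ranged from 21.8 to 25.5 TPM (median 23.2) in F/F PBS and 108.5 to 120.0 TPM (median 116.9) in F/F Tat. The ΔMye Tat libraries were at 103.8, 101.5, 104.7, 104.3 and 99.1 TPM, just below the lowest F/F Tat library. The log2 differences of Herc6 were 2.30 (standard error 0.038, adjusted p = 6.71e-21, limma) and -0.17 (standard error 0.04, adjusted p = 0.0012, limma).

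The oligoadenylate synthetases make a second messenger that activates the RNA-degrading enzyme RNase L, while the OAS-like protein OASL1 is known to repress translation of IRF7. All 6 genes rose with Tat, and 4 of them passed the fold of 3. Oasl1 (chromosome 5, 114923240 to 114937915), the most abundant of them in F/F Tat, ranged from 62.7 to 69.5 TPM (median 67.0) in F/F PBS and 734.5 to 765.7 TPM (median 754.2) in F/F Tat. It was at 432.6, 430.7, 427.7, 433.9 and 418.1 TPM in ΔMye Tat, with a narrow spread in each group and no overlap. Its log2 difference was 3.50 (standard error 0.026, adjusted p = 3.41e-26, limma) with Tat and -0.81 (standard error 0.027, adjusted p = 1.93e-14, limma) by genotype. Oas2 (chromosome 5, 120730333 to 120749853) had the widest spread relative to its mean of the 40 genes in both Tat groups, from 21 to 28.3 TPM (median 23.5) in F/F PBS and 55.7 to 71.5 TPM (median 65.0) in F/F Tat. The ΔMye Tat libraries were at 52.0, 40.3, 45.0, 45.3 and 30.7 TPM, where library 19 came close to the lowest F/F Tat library and library 23 to the highest F/F PBS library. Oas2 differed by 1.42 (standard error 0.10, adjusted p = 1.22e-10, limma) with Tat and by -0.62 (standard error 0.11, adjusted p = 8.14e-05, limma) by genotype. Oas1a was at 226.3 ± 7.08, 730.5 ± 16.5 and 563.9 ± 13.3 TPM in the 3 groups. Oas1g, which shares 55.1% of its 31-base sequences with other genes (Oas1a 68.8%), was at 34.4 ± 1.99, 176.4 ± 7.83 and 127.8 ± 3.13 TPM in the 3 groups. Oas3 and Oasl2 had ΔMye Tat means at 69.0% and 82.5% of the F/F Tat means.

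The nucleic acid sensors were all higher with Tat, and 6 of 7 passed the fold of 3. Ifi205 (chromosome 1, 174011998 to 174031810) ranged from 40.1 to 46.8 TPM (median 44.0) in F/F PBS and 1288.8 to 1375.0 TPM (median 1314.6) in F/F Tat. It was at 1059.1, 1092.2, 1169.6, 1085.2 and 1140.2 TPM in ΔMye Tat, just below the lowest F/F Tat library and 25.2-fold above F/F PBS. The log2 difference was 4.91 (standard error 0.036, adjusted p = 3.41e-26, limma) with Tat and -0.26 (standard error 0.038, adjusted p = 1.45e-05, limma) by genotype. Thus Ifi205 and Rsad2 had log2 differences with Tat of 4.91 and 5.11, and ΔMye Tat means at 83.8% and 33.3% of F/F Tat. Of the sequences of Ifi205, 22.1% are shared with other genes, mostly Ifi211. Its relative Ifi204, which is 34.0% shared, was at 170.1 ± 6.46, 880.9 ± 24.2 and 609.1 ± 10.2 TPM in the 3 groups. The cytosolic RNA sensors MDA5 (Ifih1), RIG-I (Ddx58) and LGP2 (Dhx58) differed by genotype by -0.61, -0.70 and -0.50 on the log2 scale. Zbp1, a sensor of Z-form nucleic acids that can trigger cell death, was at 237.4 ± 4.23, 1004.6 ± 30.6 and 858.1 ± 20.4 TPM in the 3 groups. Eif2ak2, which encodes the double-stranded RNA-activated kinase PKR, was at 23.2 ± 1.41, 69.3 ± 4.75 and 52.4 ± 4.67 TPM in the 3 groups and missed the fold of 3 with Tat.

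TRIM proteins are ubiquitin ligases, among which TRIM25 is known for its role in RIG-I signaling and TRIM21 is an intracellular antibody receptor. All 3 genes were called with Tat, at log2 differences of 1.61 to 2.03. Trim30a (chromosome 7, 104409025 to 104465193), the most abundant with Tat, ranged from 79.9 to 93.1 TPM (median 84.6) in F/F PBS and 252.7 to 295.9 TPM (median 273.7) in F/F Tat. It was at 258.1, 242.7, 257.0, 242.2 and 225.8 TPM in ΔMye Tat, where libraries 19 and 21 lay within the F/F Tat range. Its log2 difference was 1.68 (standard error 0.043, adjusted p = 6.80e-18, limma) with Tat and -0.16 (standard error 0.045, adjusted p = 0.00602, limma) by genotype. Trim21 and Trim25 had ΔMye Tat means at 66.3% and 69.9% of F/F Tat.

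PARP9, PARP12 and PARP14 belong to the family of ADP-ribosyltransferases, and DTX3L is a ubiquitin ligase that forms a complex with PARP9. The 4 genes were called with Tat at 1.60 to 2.04 on the log2 scale, and their ΔMye Tat means were 71.9% to 79.5% of the F/F Tat means. Parp14 (chromosome 16, 35832874 to 35871544) ranged from 59.0 to 77.4 TPM (median 68.0) in F/F PBS and 257.7 to 303.3 TPM (median 283.5) in F/F Tat. It was at 264.2, 227.5, 224.0, 228.4 and 174.8 TPM in ΔMye Tat, where library 19 lay within the F/F Tat range and library 23 was the lowest. The log2 difference was 2.04 (standard error 0.081, adjusted p = 7.17e-15, limma) with Tat and -0.34 (standard error 0.085, adjusted p = 0.00197, limma) by genotype. Parp9 and Dtx3l, which overlap by 682 bases on opposite strands, were at 1.60 and 1.67 with Tat and at -0.35 and -0.38 by genotype. Whether the counting used strand is not given in the sources used here, so reads in the overlap cannot be assigned.

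Of the 10 remaining genes, 6 passed the fold of 3 with Tat. Bst2 (chromosome 8, 71534255 to 71537456), which encodes tetherin, a membrane protein that holds budding virus particles at the cell surface, was the most abundant of the 40 genes in F/F PBS, at 830.3 to 950.5 TPM (median 878.3). It ranged from 2512.7 to 2678.9 TPM (median 2623.8) in F/F Tat and was at 1786.2, 1829.4, 1761.3, 1909.6 and 2029.5 TPM in ΔMye Tat. The groups did not overlap. The log2 difference of Bst2 was 1.56 (standard error 0.035, adjusted p = 9.40e-19, limma) with Tat, just under the fold of 3, and -0.49 (standard error 0.037, adjusted p = 2.02e-09, limma) by genotype. Rtp4 (chromosome 16, 23520291 to 23614222), a receptor-transporting protein induced by interferon, had the smallest difference in both comparisons. It ranged from 211.7 to 234.9 TPM (median 226.0) in F/F PBS and 411.9 to 450.9 TPM (median 424.8) in F/F Tat. The ΔMye Tat libraries were at 370.6, 387.2, 381.3, 391.9 and 414.1 TPM, and library 23 lay within the F/F Tat range. Rtp4 differed by 0.92 (standard error 0.031, adjusted p = 5.17e-16, limma) with Tat and by -0.13 (standard error 0.032, adjusted p = 0.00167, limma) by genotype. Tor3a (chromosome 1, 156653617 to 156674356), an ATPase of the torsin family, ranged from 70.5 to 86.5 TPM (median 75.9) in F/F PBS and 176.3 to 215.6 TPM (median 183.6) in F/F Tat. It was at 149.1, 148.8, 139.6, 134.1 and 119.6 TPM in ΔMye Tat, with no overlap. Its log2 differences were 1.31 (standard error 0.062, adjusted p = 1.34e-13, limma) and -0.47 (standard error 0.065, adjusted p = 6.88e-06, limma).

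Ifi44 was the only member below 10 TPM in F/F PBS, and it was at 4.14 ± 0.548, 53.0 ± 1.7 and 45.3 ± 1.49 TPM in the 3 groups. Its log2 difference was 3.66 with Tat and -0.22 by genotype. The neighbours Phf11b and Phf11d had log2 differences of 2.99 and 2.67 with Tat and ΔMye Tat means at 58.3% and 73.1% of F/F Tat, although 62.9% of the sequences of Phf11b are shared with other genes, mostly Phf11a. Samd9l, which restricts viral protein synthesis, Ifi35, Xaf1, an antagonist of the inhibitor of apoptosis XIAP, and Sp100, a nuclear body protein, rose by 1.60, 1.90, 1.92 and 1.43 on the log2 scale. By genotype these 4 genes fell by 0.56, 0.40, 0.41 and 0.38. Of the 40 genes, 13 share more than 10% of their 31-base sequences with other genes, and 5 share more than 50%.

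**Figure D3:**
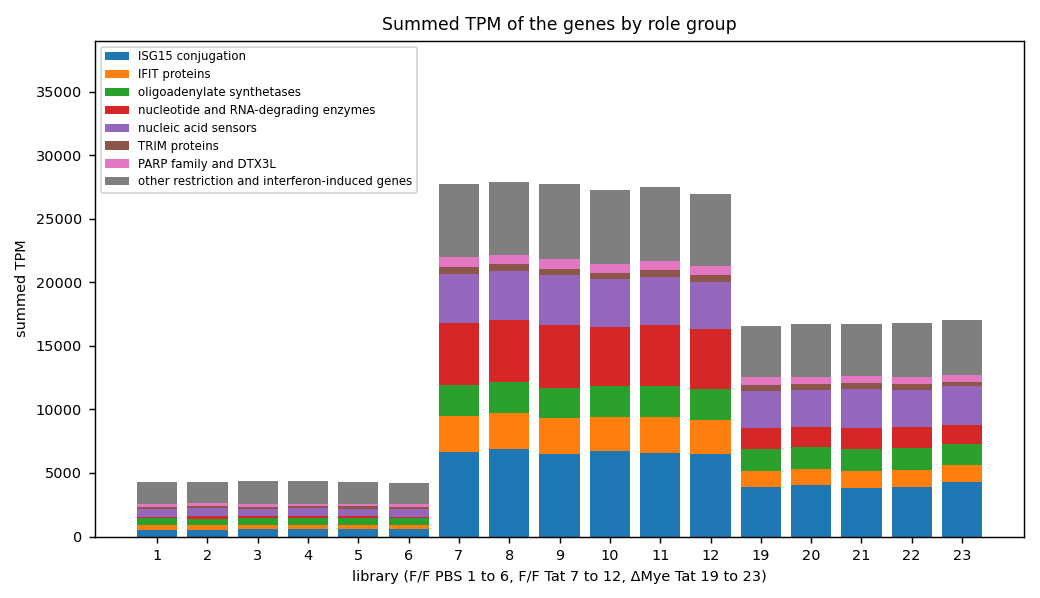
Summed TPM of the 40 genes in each library, stacked by role group, with libraries 1 to 6 from F/F PBS, 7 to 12 from F/F Tat and 19 to 23 from ΔMye Tat. The F/F PBS sums were 4301.5 ± 45.5 TPM (SD, n = 6), those of F/F Tat were 27501.7 ± 364.1 TPM (n = 6), and those of ΔMye Tat were 16767.3 ± 186.0 TPM (n = 5). Single genes, which the bars do not separate, had the highest F/F Tat means for Isg15 (5827.3 TPM), Rsad2 (2952.4 TPM) and Bst2 (2612.9 TPM).

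ΔMye PMs given Tat were also set beside F/F PMs given PBS, where genotype and treatment differ together. At an adjusted p under 0.01 (limma), ΔMye Tat exceeded F/F PBS for all 40 genes, against 17.5% of all genes, and no groups overlapped, against 14.8% of all genes. With the fold of 3, 19 of 40 genes were called, against 4.38% of all genes, and after scaling 31 of 40, against 6.39%. The median log2 difference was 1.53 (0.79 to 4.66), with all genes at -0.43. Ifi205, Isg20, Rsad2, Ifi44 and Cmpk2 had log2 differences of 4.66, 3.64, 3.53, 3.43 and 3.20 in this comparison. The ΔMye Tat mean lay between the means of F/F PBS and F/F Tat for all 40 genes.

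The ratio of 2 genes within a library does not depend on the scaling of libraries, and 17 of the 40 genes have another member within 100 kb, in 11 neighbouring pairs on 5 chromosomes. These ratios were added after the values of the genes had been seen. The test was an exact permutation test (two-sided), with p adjusted over 11600 tests, those of both comparisons in these pairs and in 5789 other pairs of neighbouring genes at 1 TPM or more in all libraries, and the smallest p that these groups allow is 0.00216. Of 11 pairs, 9 changed their log2 ratio with Tat at an adjusted p under 0.05, against 80.1% of the other pairs, and 6 differed by genotype, against 46%. These counts are near those of other neighbours, and the ratios below are descriptions of single pairs. The log2 ratio of Rsad2 to Cmpk2, whose gap is 12751 bases, was 1.11 ± 0.048, 1.40 ± 0.054 and 1.44 ± 0.082 in the 3 groups. It changed by 0.29 with Tat (exact permutation test, adjusted p = 0.00481) and by 0.04 by genotype (adjusted p = 0.393), with overlapping libraries.

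Oasl2 and Oasl1 exchanged their order with Tat. Their log2 ratio was 0.77 ± 0.081, then -1.18 ± 0.056 with Tat and -0.65 ± 0.067 with Tat in ΔMye PMs, with differences of -1.95 with Tat and 0.53 by genotype (both adjusted p = 0.00481, exact permutation test). In the IFIT cluster, the log2 ratio of Ifit3 to Ifit3b changed by -0.05 with Tat (adjusted p = 0.176) and was 0.42 higher in ΔMye Tat than in F/F Tat (adjusted p = 0.00481, exact permutation test), with the uncertainty of close copies. The log2 ratio of Ifit2 to Ifit3 was -1.06 ± 0.11, -0.42 ± 0.066 and -0.12 ± 0.063 in the 3 groups, differing in both comparisons (adjusted p = 0.00481, exact permutation test). The log2 ratio of Phf11b to Phf11d was higher in F/F Tat by 0.32 than in F/F PBS and in ΔMye Tat it differed from F/F Tat by -0.33 (adjusted p = 0.00481, exact permutation test). For Dtx3l and Parp9 the log2 ratio differed by 0.07 with Tat (adjusted p = 0.204) and by -0.03 by genotype (adjusted p = 0.691, exact permutation test).

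**Figure D4:**
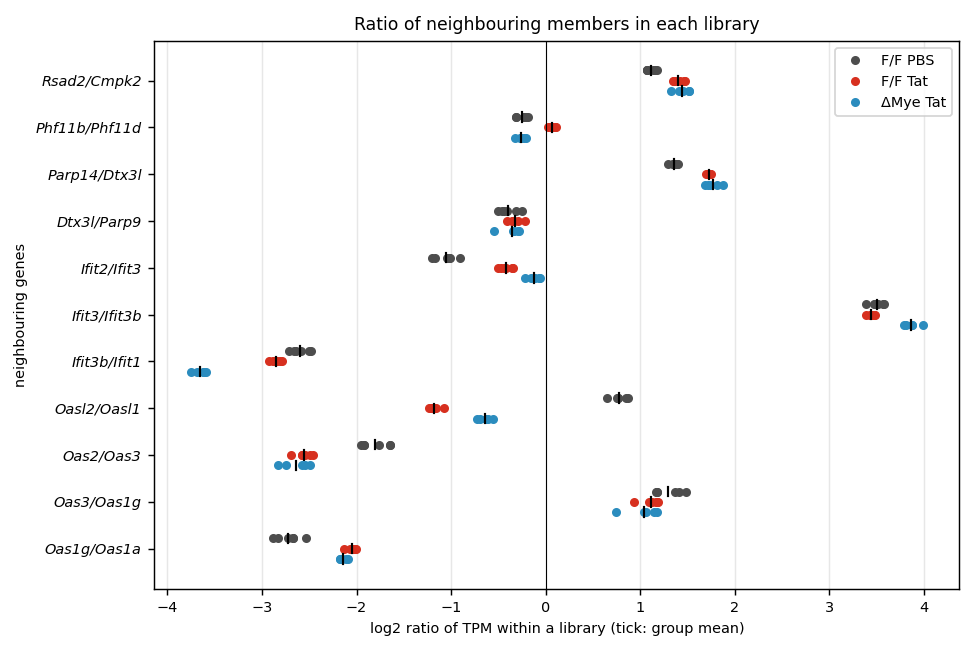
Log2 ratio of TPM within each library for the 11 pairs of neighbouring genes, with 1 point per library for F/F PBS (grey), F/F Tat (red) and ΔMye Tat (blue) and a tick at each group mean. The red and blue points of Oasl2/Oasl1 lie left of 0 and the grey points right of it, and the 3 groups of Rsad2/Cmpk2 lie between 1 and 2.

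The other genes of the pathway were read from a list of 54 ligands, receptors, kinases, transcription factors, upstream sensors and negative regulators. Of these, 34 were tested. With Tat, 20 were higher and 7 lower at an adjusted p under 0.01 (limma), against 17% higher and 67.6% lower of all genes, and after scaling 29 and 4, against 37.3% and 38%. By genotype, 14 were higher and 4 lower in ΔMye Tat, against 38.8% and 8.87% of all genes. After scaling 6 were higher and 14 lower, against 15.9% and 19.4%, so which of these genes pass depends on the scaling. By genotype, no gene passed in opposite directions before and after scaling. With Tat, Irf3 and Ptpn6 did. They were at -0.32 and -0.35 as deposited, and at 0.31 and 0.28 after scaling (adjusted p under 0.01 each, limma). The median shift of all genes by genotype was 0.22, as given above.

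Of 21 interferon ligand genes, only Ifng passed the filter. The gene of interferon β, Ifnb1, was listed at 0 to 0.141, 0.241 to 0.841 and 0 to 0.373 TPM in the 3 groups, and no other untested ligand exceeded 0.841 TPM in any library. Ifng, the gene of type II interferon, was at 0.862 ± 0.471, 56.1 ± 3.90 and 86.5 ± 6.81 TPM in the 3 groups. It rose by 6.06 with Tat (adjusted p = 8.04e-14) and differed by 0.62 by genotype (adjusted p = 0.0733, limma). The fit shares 1 spread over the 3 groups, so the genotype p also holds the spread of F/F PBS. The SD of Ifng was 54.7%, 6.96% and 7.87% of the mean in F/F PBS, F/F Tat and ΔMye Tat. Every ΔMye Tat library (79.4 to 96.4 TPM) was above all F/F Tat libraries (50.7 to 60.0 TPM), and the genotype difference was 0.40 after scaling (adjusted p = 0.264). By genotype the T cell markers moved in the same direction. Of 5 tested, 4 (Cd3d, Cd3e, Cd3g and Cd8a) were higher in ΔMye Tat. The summed T cell markers were 5.32 to 6.34 TPM in F/F Tat and 12.5 to 13.7 TPM in ΔMye Tat. With Tat in F/F PMs, where Ifng rose, the same 4 markers were lower (log2 differences of -1.43 to -0.75, adjusted p under 0.01, limma). So were 67.6% of all genes tested. After scaling, the 4 markers were at -0.87 to -0.20 and none passed (adjusted p of 0.0136 to 0.405, limma). Their means in the F/F groups were low, at 1.57 TPM or less. The other tested marker, Lck, was 0.63 higher. The part of T cells or NK cells in the level of Ifng was not tested, and the summed NK cell markers were 4.69 to 9.53, 5.55 to 8.90 and 6.69 to 9.53 TPM in the same order. The receptor genes Ifnar1 and Ifnar2 were 0.39 and 0.31 higher in ΔMye Tat than in F/F Tat on the log2 scale, and 0.17 and 0.09 after scaling, of which the last did not pass (adjusted p = 0.110, limma).

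Of the genes for ISGF3 subunits, Stat2 was at 57.9 ± 4.63, 159.1 ± 5.66 and 108.5 ± 11.6 TPM in the 3 groups and fell by 0.56 by genotype (adjusted p = 5.68e-07, limma). Irf9 was at 61.6 ± 2.95, 66.3 ± 1.85 and 66.5 ± 1.23 TPM. It differed by 0.11 with Tat (adjusted p = 0.00556) and did not pass by genotype (adjusted p = 0.922, limma). On scaled values Irf9 differed by 0.74 with Tat (adjusted p = 1.77e-13) and by -0.22 by genotype (adjusted p = 7.76e-05, limma). Irf7, the factor that amplifies interferon production, was at 385.5 ± 14.7, 1865.8 ± 38.6 and 1208.2 ± 57.6 TPM, a genotype difference of -0.63 (adjusted p = 8.22e-12, limma). Irf1, a factor that type II interferon is known to induce, rose from 124.4 ± 8.66 to 595.1 ± 35.0 TPM with Tat and was at 759.9 ± 17.1 TPM in ΔMye Tat. Its genotype difference of 0.35 (adjusted p = 2.82e-06, limma) shrank to 0.13 on scaled values (adjusted p = 0.0317). Irf8 was higher in ΔMye Tat by 0.77, and by 0.55 after scaling.

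Upstream of interferon, Tlr3, the endosomal receptor of double-stranded RNA, rose from 5.38 ± 0.806 to 35.5 ± 3.20 TPM with Tat and was at 14.4 ± 1.25 TPM in ΔMye Tat, a genotype difference of -1.29 (adjusted p = 1.45e-09, limma). Tlr4, the receptor of lipopolysaccharide, its adaptor Ticam2 and the RNA sensing adaptor Mavs fell by 1.19, 1.29 and 1.52 with Tat, and by 0.56, 0.66 and 0.89 after scaling. Of the 13 upstream genes, 7 were higher with Tat, among them Tlr7 (1.64), Myd88 (0.99) and Tbk1 (0.80), and 4 were lower. The negative regulators Socs1 and Socs3 rose by 3.24 and 3.68 with Tat. By genotype Socs1 was 0.41 higher (adjusted p = 1.66e-05, limma) and 0.19 higher on scaled values (adjusted p = 0.0326). Socs3 differed by -0.02 (adjusted p = 0.578, limma), and by -0.25 on scaled values, where it passed (adjusted p = 1.32e-05).

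**Figure D5:**
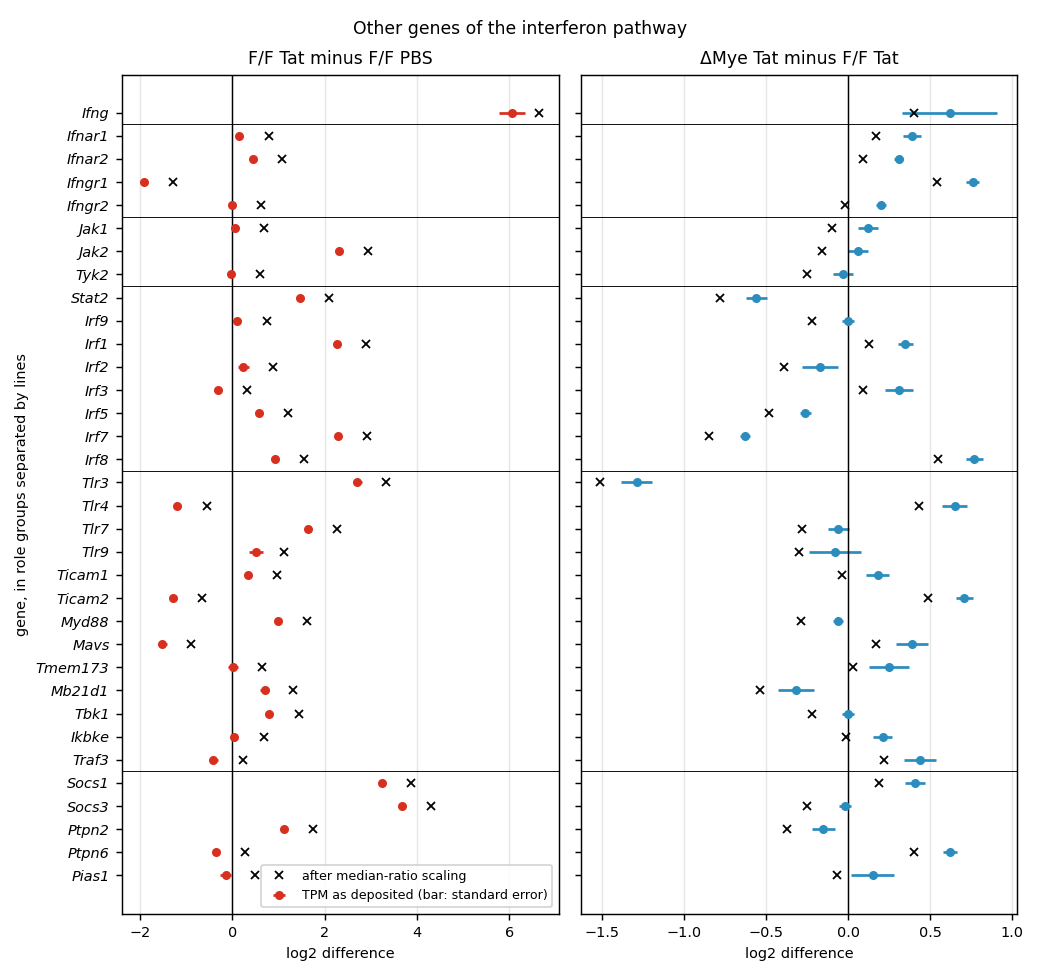
Log2 differences of the 34 tested genes of the interferon pathway that are not members of the list, for F/F Tat minus F/F PBS (left) and ΔMye Tat minus F/F Tat (right), with points and standard errors from the TPM as deposited, crosses after median-ratio scaling and lines between role groups. In the right panel Tlr3 (-1.29), Irf7 (-0.63) and Stat2 (-0.56) lie left of 0 under both scalings, and Irf8 (0.77) and Ifngr1 (0.76) lie right of it.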

How the data were processed

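RNA-Seq libraries of PMs (6 F/F PBS, 6 F/F Tat and 5 ΔMye Tat) were grouped by their labels. The authors quantified the reads with Salmon and the Ensembl annotation of GRCm38 and deposited TPM, listed by gene symbol. The study's methods name TMM normalization of read counts for its own edgeR test, and whether the deposited TPM carry it is not stated. The Salmon version and the strand setting are not given in the sources used here. TPM hold no depth, so precision rests on the spread between libraries. TPM are relative to the total of a library, so a change in abundant genes moves all others.

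A gene was tested if 5 libraries or more reached 1 TPM (10451 genes). The test was limma 3.58.1 (R 4.3.3; functions lmFit, contrasts.fit and eBayes with trend) on values of log2(TPM + 0.1), fitted once over the 3 groups with 14 residual degrees of freedom. A fold change on this scale understates that of low genes. P-values were adjusted by Benjamini-Hochberg over all genes tested. A call needed an adjusted p under 0.01 with a fold change over 3, as in the study, except that ΔMye Tat against F/F Tat used the adjusted p alone. A further allele that all groups share and a gene of the pathway list are not reported here. The members and gene lists were chosen with earlier results of these data known. Values in every library (for the groups of 6, the lowest, the median and the highest) are given for the gene with the highest F/F Tat mean in each role group and for the 3 highest and 3 lowest log2 differences in Tat against PBS and in ΔMye Tat against F/F Tat. The fit was tested on simulated data. Gene coordinates and shared 31-base sequences are from GENCODE M21. The alternatives changed the pseudocount (0.5 or 1), the filter (none or 5 TPM), the scaling (median-ratio or quantile), the test (exact permutation, robust eBayes with array weights, or a fit of the compared groups alone) and the fold threshold, or left out each library. Marker lists of macrophages and of T, B, NK, mast, mesothelial and plasmacytoid dendritic cells, neutrophils and eosinophils were summed per library. Python 3.11.15, numpy 2.4.6, pandas 2.3.3 and matplotlib 3.10.9 were used.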

Additional observations from a re-analysis of the deposited data

Results flagged for a closer look

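The levels of the 40 genes and their sum were screened in each of the 3 groups for a library far from the rest (Dixon's ratio at its 95% critical value), which chance alone meets in about 1 of 20 groups. Of 123 group values, 3 met it. Ifit3b was at 14.3 TPM in F/F PBS library 1, with the nearest library at 13.1 TPM. Oas1g was at 122.4 TPM in ΔMye Tat library 22, with the nearest at 128.0 TPM. Trim21 was at 35.6 TPM in ΔMye Tat library 23, with the nearest at 39.5 TPM. None of these values lay within the range of another group.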

How the results depend on the processing

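The count of genes called higher with Tat was 33, and 31 to 40 over the alternatives (31 to 34 with each library left out). The count lower in ΔMye Tat than in F/F Tat was 40, and 38 to 40 with each library left out. It was 36 with the exact permutation test and 38 without the filter, while a fold of 3 left 3. The count called higher in ΔMye Tat than in F/F PBS was 19 in every fit without 1 library, 31 after median-ratio scaling and 40 without the fold threshold. No gene turned its direction in any of 1040 gene and setting values of each comparison. With Tat, calls near the fold of 3 changed for Dhx58 without F/F PBS library 1 (log2 difference 1.58), for Parp9 without F/F PBS library 3 (1.58), and for Samd9l without F/F PBS library 3 or 6 or F/F Tat library 7 (1.57 each) or 9 (1.58). Eif2ak2 passed it without F/F PBS library 2 (1.59) or F/F Tat library 10 (1.60), and Oas1a missed it after quantile normalization (1.48). By genotype, Ifi44 stayed under an adjusted p of 0.01 only without F/F PBS library 2, 3 or 5 and reached 0.0227 without ΔMye Tat library 23. Trim30a exceeded 0.01 without F/F Tat library 7, 8, 9 or 11 or ΔMye Tat library 20, 22 or 23, up to 0.0199 (limma). Without the filter on low values the adjusted p was 0.0145 for Ifi44 and 0.0103 for Trim30a. No paired analysis was possible because the groups share no replicate numbers. TPM give no depth, the groups hold 5 or 6 libraries, and the ΔMye group has no PBS libraries here.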

Other observations

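The summed B cell markers were 12.4 to 25.7, 11.3 to 15.0 and 8.33 to 13.0 TPM in F/F PBS, F/F Tat and ΔMye Tat. The neutrophil sums were 71.2 to 83.6, 66.8 to 79.2 and 89.5 to 106.6 TPM in the same order, mostly S100a8 (means 53.8, 68.6 and 91.4 TPM). Of the other neutrophil markers, Mmp8 was at 15.9, 2.57 and 3.82 TPM and Retnlg at 5.07, 0.671 and 0.298 TPM. Mast cell sums were 32.9 to 45.6, 31.5 to 43.3 and 24.2 to 30.9 TPM. Those of plasmacytoid dendritic cells, mostly Cox6a2, were 101.9 to 116.4, 49.3 to 60.9 and 31.2 to 37.6 TPM. Mesothelial markers summed to at most 4.75 TPM and eosinophil markers to at most 2.47 TPM in any library.

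Among the 5 ΔMye Tat libraries, library 23 held the lowest level of 22 of the 40 genes and the highest level of 8. The median length of the longest annotated transcript was 3917.5 bases for the 22 genes and 1610.5 bases for the 8. In F/F Tat, library 10 held the lowest level of 23 genes (median length 3874.0 bases) and the highest of 5 (1885.0 bases). Library 23 also had the lowest Ikbkb level of its group (12.8 TPM) and the highest sum of the 40 genes (17068.7 TPM), and library 19 had the highest Ikbkb level (19.9 TPM) and the lowest sum (16563.5 TPM). With 5 libraries no correlation was computed. Library 23 reached 1 TPM for 9449 genes and library 19 for 9698. The part of transcript length in these values was not tested.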
